A study of Homo sapiens with 6 samples.

Results

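The genes described are 10 enzymes of glycolysis, chosen by symbol from the 22989 genes of the deposited count table: Gpi1, Pfkl, Pfkp, Aldoa, Aldoc, Tpi1, Pgam1, Eno1, Eno2 and Pkm. The series holds RNA-seq of 3 LINC00115 KD and 3 WT libraries, all described as BCSC, stem-like cells, of paclitaxel (PTX)-resistant MDA-MB-231, a line derived from human triple-negative breast cancer. According to the methods, BCSC were sorted for high aldehyde dehydrogenase activity, and KD cells carried a short hairpin RNA against the long noncoding RNA LINC00115 and were selected with puromycin. The study uses 2 hairpins and a control hairpin. It names sh115-2 for the RNA-seq, whereas the labels give sh115-1, sh115-2 and sh115-3 for the 3 KD libraries and WT for the controls, so which hairpin each library carries is not clear. No label says that the libraries came from separate cultures, so p-values measure only the spread between these libraries, which may be technical.

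Glycolysis splits glucose into pyruvate and yields ATP without oxygen. Most steps have several isozymes, encoded by separate genes that differ in tissue and regulation, so that a cell can change its isozymes as well as its total capacity. Many genes of the pathway are known targets of the hypoxia-inducible factor HIF1, which raises their transcription at low oxygen, and HIF1 signaling is the pathway the study follows after LINC00115 KD. Aldoc and Eno2 are known mainly from brain, where they are aldolase C and the neuron-specific enolase, whereas Aldoa, Eno1 and Pkm are the common forms of proliferating cells.

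The libraries held between 36979221 and 38799331 counts. The symbols are written in the style of mouse genes, with 4648 Gm and 1129 Rik names and 16 symbols equal to a human one in GENCODE as written, although the labels name a human line. LINC00115 is listed under no name, so the knockdown could not be checked here and each direction rests on the labels. Of 14 markers for a mesenchymal breast cancer line, Vim, Cd44 and Fn1 were abundant, Krt8 and Krt18 were counted, and Epcam had at most 5 counts in any library. Of the aldehyde dehydrogenases of stem-like cells, Aldh1a1 had 8 to 52 counts and Aldh1a3 at most 4. Cdh1 had 1 to 3 counts in the WT libraries and 22 to 31 in the KD libraries, and Esr1 24 to 29 and 82 to 105. Among the 14, 7 passed 3 counts and were higher in every KD library (Vim, Krt18, Krt8, Cdh1, Esr1, Erbb2 and Aldh1a1). Fn1 was lower in every KD library. Lung marker genes summed to 1.78 to 2.07 normalized CPM (reads per 1e6 reads of a library after TMM scaling) in the WT libraries and to 74.0 to 84.6 in the KD libraries. Kidney markers summed to 16.8 to 19.6 and 41.0 to 45.2, and leukocyte markers to 86.8 to 98.0 and 193 to 207. All 11 lung markers, 7 of 11 kidney markers and 4 of 10 leukocyte markers passed 3 counts and showed no overlap of the groups, with KD above WT. Every KD library lay below every WT library for 37.8% of all genes tested. The share of all genes with KD above WT in this way was not computed, so these counts, like the 7 of 14, have no background. Within the leukocyte list, Cd3e was at 0 in all libraries. These levels move with the groups in all comparisons given here, and their part in the results was not tested.

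To see whether glycolytic genes differed between LINC00115 KD and WT cells, edgeR's quasi-likelihood test was run on the counts of all genes, with the standard error (SE) of each log2 fold change taken from the same model. All 10 enzymes were lower in the KD libraries at an adjusted p-value under 0.05. Of the 13497 genes tested, 36.7% were lower and 36.7% higher by the same rule. The median log2 fold change was −0.95 over the 10 enzymes and −0.0061 over all genes tested. At the study's thresholds, which add a fold change over 2, 4 of the 10 were called lower (Aldoc, Eno2, Tpi1 and Gpi1) and none higher, where 9.98% of all genes tested were called lower and 10.2% higher. Every KD library lay below every WT library for each of the 10 genes, as it did for 37.8% of all genes tested. In RNA from pooled cells, fewer cells of a type and less RNA per cell cannot be told apart.

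Together, reads of the 10 enzymes made up 1.40%, 1.36% and 1.36% of all counts in the WT libraries. In the KD libraries they made up 0.735%, 0.712% and 0.732%. The mean fell from 1.37 ± 0.0214% to 0.726 ± 0.0126% (SD, n = 3 each), which left 52.8% of the WT share (two-sided exact permutation test, p = 0.1, the smallest p that 3 libraries against 3 allow). Counting error was far smaller than this difference, with 95% Wilson intervals from 1.36% to 1.40% over the WT libraries and from 0.709% to 0.737% over the KD libraries.

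**Figure D1:**
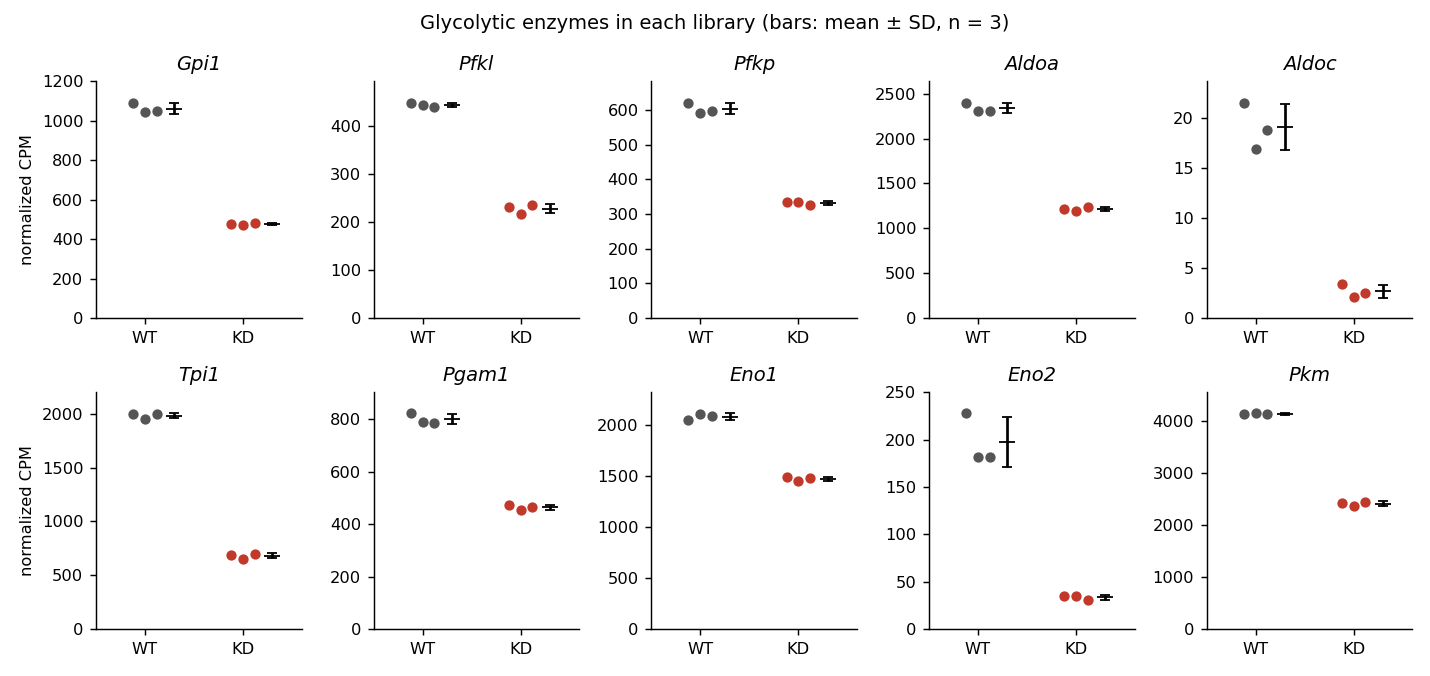
Normalized CPM (y axis, from 0) of the 10 glycolytic enzymes in each of the 3 WT (grey) and 3 LINC00115 KD (red) libraries, with black bars for the mean ± SD. In all 10 panels the KD libraries lie below the WT libraries, by the largest fold for Aldoc and Eno2 and by the smallest fold for Eno1.

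In the upper part of the pathway, Gpi1 is glucose phosphate isomerase, which turns glucose phosphate into fructose phosphate. Gpi1 had 1092, 1046 and 1047 normalized CPM in the WT libraries and 477, 472 and 481 in the KD libraries, lower by a factor of 2.23. Its log2 fold change was −1.16 (SE 0.03, edgeR adjusted p = 6.84e-27). The spread within each group was far smaller than the gap between the groups.

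Phosphofructokinase adds the next phosphate and commits the sugar to glycolysis. It is built from the liver-type subunit Pfkl, the platelet-type subunit Pfkp and the muscle-type subunit Pfkm. Pfkl had 448, 444 and 439 normalized CPM in the WT libraries and 231, 217 and 236 in the KD libraries, a log2 fold change of −0.96 (SE 0.03, edgeR adjusted p = 7.03e-23). Pfkp had 621, 592 and 598 in the WT libraries and 336, 335 and 326 in the KD libraries, a change of −0.86 (SE 0.03, adjusted p = 2.18e-22). Both subunits were therefore lower in each KD library by a little under a factor of 2, and neither was called at the study's thresholds. Pfkm, which was not among the 10, changed by −0.86 as well (SE 0.05, adjusted p = 1.01e-17). The summed reads of the 3 subunits fell from 0.116 ± 0.00305% to 0.0612 ± 0.00101% of all counts (SD, n = 3 each), which left 52.9% of the WT share (exact permutation test, p = 0.1).

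Aldolase cleaves the doubly phosphorylated fructose into triose phosphates. The main form, Aldoa, had 2400, 2301 and 2310 normalized CPM in the WT libraries and 1214, 1197 and 1239 in the KD libraries. Its log2 fold change was −0.94 (SE 0.03, edgeR adjusted p = 3.10e-25), just short of the fold threshold. Aldoc had the largest decrease of the 10 enzymes and the fewest reads, with 811, 637 and 711 counts in the WT libraries and 132, 79 and 95 in the KD libraries. On the normalized scale these were 21.5, 16.9 and 18.8 CPM against 3.41, 2.15 and 2.50, a log2 fold change of −2.82 (SE 0.14, adjusted p = 5.47e-19). Its coefficient of variation was 12.3% in the WT libraries, next to that of Eno2 (13.6%), and 24.2% in the KD libraries, the largest of the 10, yet the highest KD library stayed far below the lowest WT library. With each library left out in turn, the change of Aldoc ranged from −3.03 to −2.68.

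Triose phosphate isomerase, Tpi1, makes both triose phosphates usable by the lower pathway. Tpi1 had 1994, 1953 and 1995 normalized CPM in the WT libraries and 689, 653 and 696 in the KD libraries, and its log2 fold change of −1.54 (SE 0.03, edgeR adjusted p = 9.72e-31) was the largest among those of the 10 enzymes that have no other isozyme on the list. Only 34.3% of its WT level was left.

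In the lower part of the pathway, phosphoglycerate mutase, Pgam1, moves the phosphate within phosphoglycerate. Pgam1 had 823, 791 and 787 normalized CPM in the WT libraries and 474, 454 and 465 in the KD libraries, a log2 fold change of −0.78 (SE 0.03, edgeR adjusted p = 1.45e-21). Pkm, the pyruvate kinase whose splice forms M1 and M2 cannot be told apart in counts per gene, forms pyruvate and ATP in the last step. It had 4131, 4152 and 4134 normalized CPM in the WT libraries and 2427, 2364 and 2447 in the KD libraries, a change of −0.78 (SE 0.03, adjusted p = 6.12e-24). Both genes kept 58.0% to 58.3% of their WT level, with no overlap between the groups.

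Enolase turns phosphoglycerate into phosphoenolpyruvate. Eno1, the common form, had 2045, 2107 and 2085 normalized CPM in the WT libraries and 1485, 1443 and 1479 in the KD libraries. Its log2 fold change of −0.50 (SE 0.03, edgeR adjusted p = 1.21e-17) was the smallest of the 10. Eno2 had 228, 182 and 182 in the WT libraries and 34.7, 35.3 and 30.2 in the KD libraries, a change of −2.56 (SE 0.07, adjusted p = 2.18e-27). WT replicate 1 stood above the other WT libraries for Eno2 and also, by less, for Aldoc, and without it the changes were −2.45 and −2.73.

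**Figure D2:**
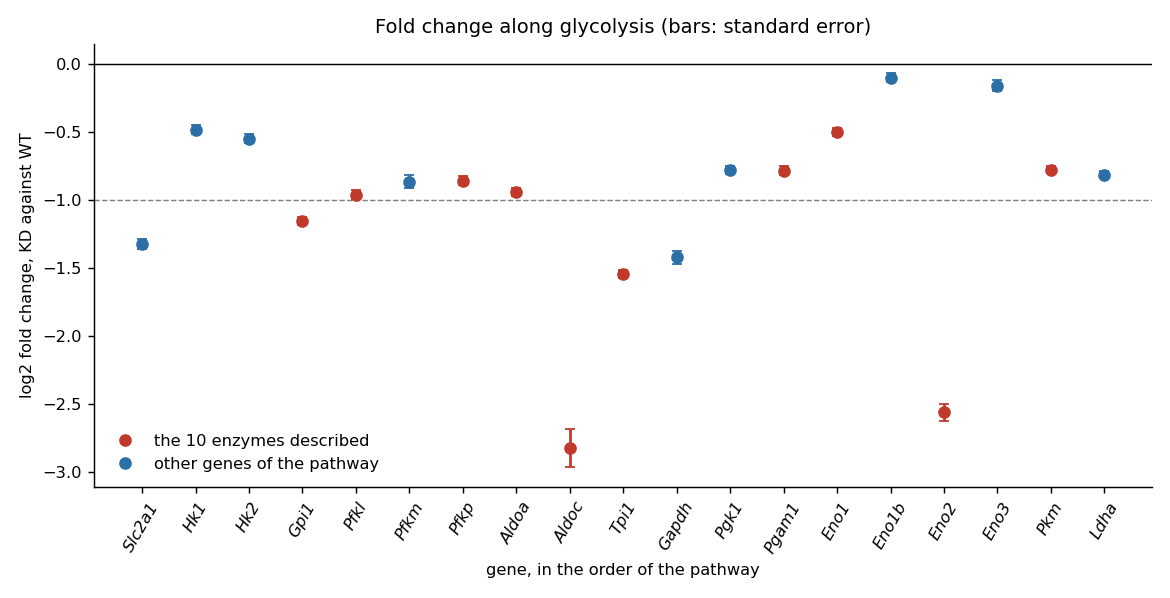
Log2 fold change of LINC00115 KD against WT (y axis, with standard errors) for the 10 enzymes (red) and 9 further genes of the pathway (blue), from glucose transport on the left to lactate on the right, with a dashed line at a fold change of 2. The further genes are a selection, and tested genes above 0 such as Eno4 (0.15), Slc2a6 (0.82), Ldhd (0.81) and Ldhb (4.20) are not drawn. Of the genes drawn, Aldoc and Eno2 lie lowest, and Eno1b and Eno3 lie nearest to 0.

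Human promoters were looked up by the symbols of the enzymes that differed most, ALDOC and ENO2. They are given beside that of ENO1, the symbol of the 10 that changed least. HIF1 is known to bind a short core, searched here as ACGTG on both strands. The windows run from 250 bases before to 50 bases after the start of the human RefSeq gene of the same symbol (GRCh38.p14, strand of the gene). Human sequence was taken since the labels name human cells, and no mouse sequence was used here. The counted genes carry names of mouse genes, so these human windows are not the promoters of the genes as named. The matches are therefore not read against the fold changes. Capitals mark the core or its reverse complement CACGT. ALDOC lies at chr17:28576846-28577145 on the minus strand, ENO2 at chr12:6914330-6914629 on the plus strand and ENO1 at chr1:8878637-8878936 on the minus strand.
ALDOC: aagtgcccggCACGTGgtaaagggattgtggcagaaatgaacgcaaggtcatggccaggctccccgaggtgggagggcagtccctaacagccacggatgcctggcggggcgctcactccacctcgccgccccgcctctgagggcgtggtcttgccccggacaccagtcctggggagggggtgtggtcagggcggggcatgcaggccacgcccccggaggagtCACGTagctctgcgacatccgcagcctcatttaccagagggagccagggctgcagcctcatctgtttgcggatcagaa
ENO2: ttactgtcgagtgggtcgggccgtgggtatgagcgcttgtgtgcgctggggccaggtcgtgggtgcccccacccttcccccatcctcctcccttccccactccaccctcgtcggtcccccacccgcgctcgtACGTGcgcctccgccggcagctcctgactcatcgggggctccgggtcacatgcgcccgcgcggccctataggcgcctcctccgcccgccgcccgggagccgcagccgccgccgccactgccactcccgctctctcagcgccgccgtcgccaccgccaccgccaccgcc
ENO1: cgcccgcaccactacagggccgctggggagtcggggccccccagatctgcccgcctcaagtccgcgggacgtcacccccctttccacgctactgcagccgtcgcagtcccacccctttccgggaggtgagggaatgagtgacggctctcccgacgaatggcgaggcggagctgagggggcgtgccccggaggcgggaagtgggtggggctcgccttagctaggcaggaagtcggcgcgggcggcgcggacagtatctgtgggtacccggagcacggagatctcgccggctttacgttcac
The ALDOC window held 3 matches, of which the first 2 overlap in CACGTG, the ENO2 window 1 and the ENO1 window 0. By symbol, 9 of the 10 enzymes had a window and Gpi1 had none. Of these 9, ALDOA, ALDOC, ENO2, PFKP and TPI1 (5 genes) had the core in at least 1 of their windows, and PFKL, PGAM1, ENO1 and PKM did not. Some genes have several starts, and 7 of the 15 windows of these genes held the core, against 21.4% of the 35116 windows of all genes. Of these 7 windows, 3 are of ALDOA alone. The share of all genes with the core in at least 1 window was not computed, so the 5 genes have no background. The search was also widened to GCGTG, the other form of the core known for HIF1, on both strands. With ACGTG or GCGTG, 11 of the 15 windows held a match, against 48.4% of the windows of all genes, and 8 of the 9 genes, ENO1 included and PGAM1 not, had at least 1, so that ENO1 differs from ALDOC and ENO2 by the narrower core only. A match describes these letters only and is no evidence of binding.

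To compare isozymes, the ratio of their reads was taken within each library, so that library scaling cancels. Ratios count reads and are not corrected for transcript length, so only their difference between the groups is read. Reads of Aldoc made up 0.889%, 0.728% and 0.808% of the reads of Aldoa and Aldoc in the WT libraries and 0.280%, 0.180% and 0.202% in the KD libraries. The Aldoc to Aldoa ratio was thus lower by a factor of 3.74 in the KD libraries, a difference in log2 ratio of −1.90 (standard error 0.21). Reads of Eno2 made up 10%, 7.93% and 8.04% of the reads of Eno1 and Eno2 in the WT libraries and 2.28%, 2.39% and 2.00% in the KD libraries, a difference in log2 ratio of −2.06 (standard error 0.144), or a factor of 4.16. In both families the isozyme known from brain had lost more than the common form in every KD library, with no overlap between the groups (exact permutation test, p = 0.1 for each, 0.15 adjusted over the 3 pairs).

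The Pfkp to Pfkl ratio behaved differently. Reads of Pfkp made up 58.0%, 57.1% and 57.7% of the reads of both subunits in the WT libraries and 59.2%, 60.7% and 58.0% in the KD libraries. The groups overlapped, with KD replicate 3 at the level of WT replicate 1, and the difference in log2 ratio was 0.10 (standard error 0.048, exact permutation test, p = 0.2, adjusted 0.2). A shift between the phosphofructokinase subunits was not detectable with these libraries, while the total of the family was lower.

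**Figure D3:**
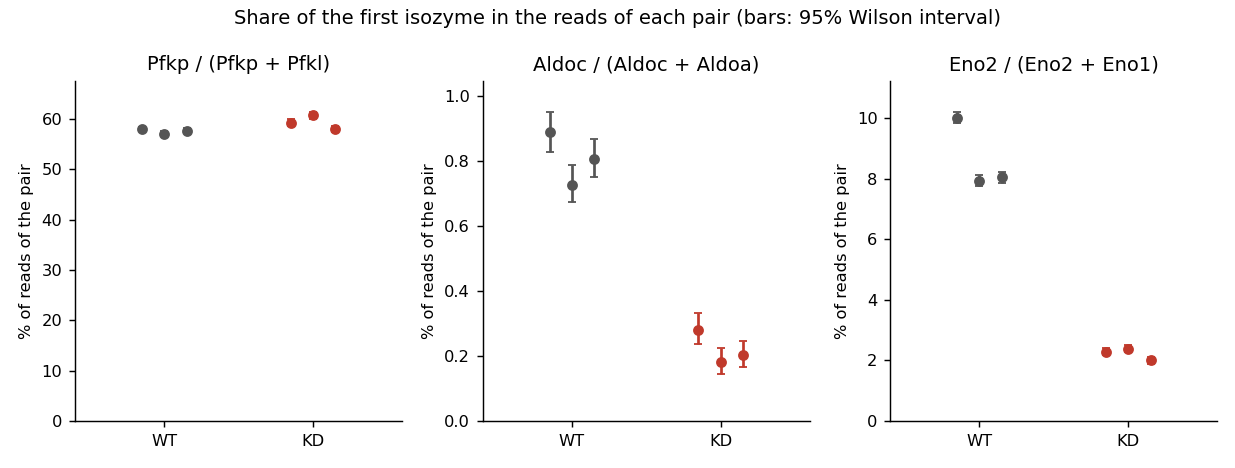
Share of Pfkp, Aldoc and Eno2 in the reads of each isozyme pair (y axes, percent, from 0) in the 3 WT (grey) and 3 LINC00115 KD (red) libraries, with 95% Wilson intervals that cover counting error only. Aldoc lies between 0.728% and 0.889% in WT and between 0.180% and 0.280% in KD, Eno2 falls likewise, and the Pfkp shares of both groups meet at 58.0%.

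Since the brain is the known site of Aldoc and Eno2, markers of neural cells were compared as well. They summed to 17.3 to 19.5 normalized CPM in the WT libraries and to 30.6 to 33.3 in the KD libraries. Map2 and Mbp made up most of this sum and were the 2 markers that were higher in every KD library. Syp was lower in every KD library, with 7, 14 and 20 counts in WT and 5, 1 and 2 in KD. It did not pass edgeR's filter on low counts. Of the 10 markers in the table, 4 (Syt1, Aqp4, Slc1a3 and S100b) were at 0 in every WT library and had at most 6 counts in any KD library. Rbfox3 was at 0 in every KD library and had at most 1 count in any WT library.

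Enolase reads have a further source. Eno1b is a mouse gene that arose as a near-identical copy of Eno1, and how the authors' counting split reads between such copies is not known, so both values are uncertain. Eno1b had 504, 518 and 507 normalized CPM in the WT libraries and 482, 458 and 486 in the KD libraries, a log2 fold change of −0.10 (SE 0.03, edgeR adjusted p = 0.00601). With reads of Eno1 and Eno1b summed, 74.1% of the WT share of counts was left, and the difference in the log2 ratio of Eno2 to this sum was −2.15, close to that against Eno1 alone. Eno3, the muscle form, fell by 0.16 on the log2 scale (SE 0.04, adjusted p = 0.000433). Over all 4 enolases together the share of counts fell from 0.297 ± 0.00161% to 0.211 ± 0.00418% (SD, n = 3 each), which left 71.0%, against 52.9% for the phosphofructokinases and 51.0% for Aldoa and Aldoc together.

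Ordered by their log2 fold change, the 10 enzymes ran from Aldoc and Eno2 over Tpi1, Gpi1, Pfkl, Aldoa, Pfkp, Pgam1 and Pkm to Eno1. The ratio of the reads of neighbours in this order was taken within each library. The order came from these same libraries, so the sign of each difference followed from it and no p-value could test it. Of the 9 neighbouring pairs, 3 had ratios that overlapped between the groups, Aldoc with Eno2 (difference −0.29, standard error 0.208), Pfkl with Aldoa (−0.02, 0.026) and Pgam1 with Pkm (−0.01, 0.025). For the other 6 pairs the ratios did not overlap. How often the ratios of any gene pair do so was not computed, so this describes the spread only.

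Of 15 other glycolytic enzymes listed, 9 passed edgeR's filter on low counts, and at an adjusted p-value under 0.05 there were 7 lower and 0 higher. Of all genes tested, 36.7% were lower and 36.7% higher by the same rule. The median log2 fold change of the 9 was −0.48. At the study's thresholds, 9.98% of all genes tested were called lower, and 1 of the 9 was. This was Gapdh, the dehydrogenase that follows Tpi1, which had 136, 145 and 135 normalized CPM in the WT libraries and 53.0, 47.7 and 54.3 in the KD libraries, a change of −1.42 (SE 0.05, edgeR adjusted p = 1.67e-23). Gapdh has many processed copies in mammalian genomes, and reads shared with them may have been left out. Pgk1, which follows Gapdh in the pathway, changed by −0.78 (adjusted p = 9.65e-23), the value also found for Pgam1 and Pkm. Hk1 and Hk2, the hexokinases that trap glucose in the cell, changed by less, by −0.48 and −0.55 (adjusted p = 7.64e-15 and 1.38e-15). At each step from Gpi1 to Pkm, at least 1 gene was therefore lower in the KD libraries. Bpgm (−0.27, adjusted p = 0.0909) and Eno4 (0.15, adjusted p = 0.819) did not pass the test.

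The regulators around phosphofructokinase went the other way in part. The Pfkfb enzymes make and break the allosteric activator of phosphofructokinase, and Tigar breaks it down. Among these 5 genes the test gave 3 higher and 1 lower, where 36.7% of all genes tested lay in each direction. Pfkfb4 was called higher, with 8.61 to 9.0 normalized CPM in the WT libraries and 18.5, 19.4 and 17.7 in the KD libraries (log2 fold change 1.08, SE 0.10, edgeR adjusted p = 5.90e-12). Tigar changed by 0.93 (adjusted p = 1.56e-10) and Pfkfb2 by 0.39 (adjusted p = 6.65e-05), whereas Pfkfb1 changed by −0.91 (SE 0.20, adjusted p = 0.000167). Pfkfb3 overlapped between the groups with a change of −0.06 (adjusted p = 0.179).

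Pck1 and Fbp1, enzymes of gluconeogenesis known from liver and kidney, had 0 counts in every WT library. Pck1, which makes phosphoenolpyruvate, had 78, 120 and 130 counts in the KD libraries, at least 36.5-fold above a floor of 3 counts in each WT library, which 0 counts allow (edgeR adjusted p = 1.27e-12). Fbp1, which reverses the phosphofructokinase step, had 24, 16 and 20 counts (at least 6.64-fold, adjusted p = 2.91e-06). Both were called higher, with means of 2.90 and 0.528 CPM in the KD libraries, beside the kidney markers given above, of which Kap and Umod were also at 0 in every WT library. The part of kidney RNA in these values was not tested. Of the isozymes known from single tissues, the liver form Pklr had at most 1 count in any library. Pgam2, the muscle form, had at most 4 counts, Eno4 had 9 to 16, and skeletal muscle markers summed to 1.17 to 2.22 CPM in WT and 1.89 to 3.06 CPM in KD.

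Next to the 10 enzymes, lists of genes on the adjoining routes were set side by side, each read by its counts and its median and without a test between lists. By adjusted p alone, 36.7% of all genes tested were lower and 36.7% higher. Over 7 glucose entry genes tested the median was −0.48 on the log2 scale, with 5 lower and 1 higher by the same test, and the glucose transporter Slc2a1 was called lower (−1.32). Hk1 and Hk2 are on this list and also among the other glycolytic enzymes, and Hk1 holds the median of both lists. Genes of lactate and pyruvate fate had a median of 0.10 over 16 genes, with 4 lower and 8 higher. Pdk1, the kinase that inhibits pyruvate dehydrogenase, was called lower (−1.92), and Ldhb, the lactate dehydrogenase subunit of heart, was called higher (4.20) on 1 to 2 counts in WT and 25 to 29 in KD. Ldha, the subunit known from muscle and tumors, had 2269, 2312 and 2307 normalized CPM in the WT libraries and 1300, 1282 and 1336 in the KD libraries (−0.81, edgeR adjusted p = 1.32e-23), lower in each KD library but not past the fold threshold. TCA cycle genes had a median of −0.11 over 22 genes, with 11 lower and 6 higher, of which Ogdhl was called lower (−2.28). Pentose phosphate genes had a median of 0.34 over 8 genes, with 7 higher and 1 lower, of which Rpia was called higher (1.38). The median of −0.95 over the 10 enzymes was the lowest of these lists, but the 10 were chosen with earlier results of these data known. Over all 19 glycolytic enzymes tested, the 10 included, the median was −0.78.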

How the data were processed

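According to the methods, the authors removed adapters and aligned reads with HISAT2 to hg19, and they deposited whole-number read counts per gene without normalization. The labels name HISAT2, featureCounts and DESeq2 and the build hg38, so the build is stated in conflicting ways, and the annotation and use of strand are not given in the sources used here. Columns were assigned to samples by name, and 0 columns of values were left unused. Counts of the 10 enzymes ranged from 79 to 156664 per library.

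The 13497 genes passing filterByExpr (minimum count 10, minimum total 15) were TMM-normalized and tested with edgeR 4.0.16 in R 4.3.3 (quasi-likelihood test, group only, Benjamini-Hochberg over all genes). Called genes had an adjusted p-value under 0.05 plus a change of over 2-fold, as in the study. Standard errors were the log2 fold change over the square root of F, and the biological coefficient of variation was 5.21%. Summed shares (5 sums) and isozyme ratios (3 pairs) of raw counts were tested by two-sided exact permutation. Wilson intervals (95%) and floors (3 counts) cover counting error only. Alternatives were other scalings and filters, DESeq2 1.42.0, left-out libraries and a replicate block, plus the wider promoter core and the summed Eno1 and Eno1b counts, both added after seeing the data. The pipeline was tested on simulated data. The members and lists were chosen with earlier results of these data known. All 10 enzymes are named, as are called genes of the glycolytic and gluconeogenic lists and up to 2 called genes of each adjoining list. Some genes of these lists are not reported here. Other genes named were chosen after their values were seen. No library was a copy of another, since chi-square per degree of freedom between replicates was 3.88 to 7.60.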

Additional observations from a re-analysis of the deposited data

How the results depend on the processing

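All 10 enzymes kept a negative log2 fold change under every scaling, filter, left-out library and in DESeq2, and 4 were called lower in each except with upper quartile scaling (Pfkl −1.001 joins them). Without a threshold on the fold change, 10 enzymes were lower, and 9 against a fold change of 1.5, all but Eno1. Among the other glycolytic enzymes and regulators, 1 was called lower and 1 higher. These were 8 and 3 without the fold threshold, 3 and 2 against a fold change of 1.5, and 1 to 2 lower with each library left out (Pfkfb1 is added without KD replicate 3). Over all genes, 1347 were lower and 1381 higher, and 4960 and 4952 without the fold threshold. Against a fold change of 1.5, 1730 were lower and 1856 higher of the 13497 genes tested. With at least 10 counts in every library, 919 were lower and 903 higher. With the replicate number as a block, the log2 fold changes of the 10 enzymes moved by little (Aldoc −2.83, Eno2 −2.56), and the 3 isozyme ratios and the summed share had an exact p of 0.25, the smallest that 3 pairs allow. Deviations of same-numbered libraries from their group means had correlations of 0.0421, −0.0147 and −0.0214. Libraries of different numbers had −0.0244 to 0.0391. Such values show no pairing by number but cannot exclude one by design. Scaling did not bear on the ratios, and leaving out 1 library moved the Aldoc to Aldoa difference between −2.09 and −1.77 and the Eno2 to Eno1 difference between −2.12 and −1.94. Depth limits Aldoc most.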
